A study of Homo sapiens with 12 samples.

Results

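The genes examined were 10 immediate early genes outside the AP-1 family, chosen by name as serum- and stress-induced transcripts: EGR1, EGR3, NAB2, IER2, IER3, IER5, ATF3, BTG2, ZFP36 and SRF. All 10 were found by symbol among the 58735 genes of the count table. They were measured by RNA-Seq of polyadenylated RNA in HEK293T, a human embryonic kidney cell line labelled wild type, split evenly into 4 groups of 3. Cells of the DMSO group were given no compound beyond the vehicle. Those of the CEP group were given AHL-Pu-1, a clickable electrophilic purine that reacts with protein cysteines, at 25 µM for 1 h. Those of the 4SU group were given 4-thiouridine, a photoreactive uridine analog that is built into RNA, at 100 µM for 16 h, and those of the CEP+4SU group both. The treatment text on the labels is identical for all 12 libraries. It gives the CEP dose as 25 mM where the study's methods give 25 µM, describes UV crosslinking at 312 nm on ice, and places CEP in serum-free medium. Whether cells without CEP or without 4SU also went through the medium change and the irradiation is not stated separately, and its part in the results was not tested. The study describes the 3 replicates of each group as biologically independent.

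Immediate early genes are transcribed within minutes of a stimulus, without new protein synthesis, and their short-lived mRNAs make them sensitive reporters of recent signalling. Growth factor and stress kinases, ERK and p38 among them, act on ternary complex factors such as ELK1, which sit with SRF on the CArG boxes of their promoters. EGR1, EGR3, ATF3 and SRF are DNA-binding transcription factors and NAB2 represses EGR proteins, while BTG2 and ZFP36 bring the CCR4-NOT deadenylase to mRNAs and so shorten the lives of transcripts. IER2, IER3 and IER5 are small proteins named for their early induction.

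The libraries held between 16569114 and 24644734 counts on genes, and the common biological coefficient of variation was 0.114. CEP replicate 2 and CEP+4SU replicate 2 stood apart, with 22230 and 22627 genes at 1 count or more against at least 24376 in the other 10. They were also the libraries in which counts fell most with rising GC content of the transcript. All 8 markers fixed for HEK293T were detected in all libraries, from EPCAM at 3.20 to 6.97 CPM (counts scaled to library size) to VIM at 210 to 262 CPM. Of 10 markers of other cell types, CD3E and UMOD had no count in any library, MYOD1 and LUM reached 3.02 and 3.36 CPM, and the other 6 stayed under 1 CPM. Their summed level was 3.94 to 4.796 CPM with DMSO, 3.99 to 5.13 with CEP, 4.12 to 6.13 with 4SU and 3.21 to 4.03 with both, and its part in the results was not tested. In bulk RNA a change in the share of cells that express a gene and a change per cell cannot be told apart.

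Per length, the 10 early genes spanned a wide range of levels. On the FPKM scale, which divides counts by gene length and library size, the mean over 12 libraries was 21.3 for SRF, 20.1 for IER5, 12.5 for ATF3, 8.76 for BTG2, 8.03 for IER2, 5.64 for NAB2, 4.43 for IER3, 2.28 for EGR1, 1.34 for ZFP36 and 0.230 for EGR3. Neighbours in this order overlapped in their ranges over the libraries, except that every library's ZFP36 value, from 0.762 FPKM, exceeded every EGR3 value, up to 0.406. SRF stood above 86.4% of the 17729 genes that passed the low-count filter and EGR3 above 7.9%. All 10 passed that filter, EGR3 with only 9 to 42 counts a library. Their transcripts were GC-rich, with a median GC content of 56.3% against 48.5% over the genes tested, and their gene lengths were 1356 to 4855 bases with a median of 3105 against 4341. The genes lie on chromosomes 1 (IER5, ATF3, BTG2), 5 (EGR1), 6 (IER3, SRF), 8 (EGR3), 12 (NAB2) and 19 (IER2, ZFP36). Antisense genes share 30.8% of the exon bases of IER2 and 26.5% of those of IER3, and the strand setting of the counting was not stated. These partners held 0 (AC011446.2) and 8 (IER3-AS1) counts over all libraries. Such counts do not show whether reads in the shared bases were counted for either gene. NAB2 shares 69 exon bases with STAT6 on the other strand, which held 9581 counts over all libraries against 4075 for NAB2.

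**Figure D1:**
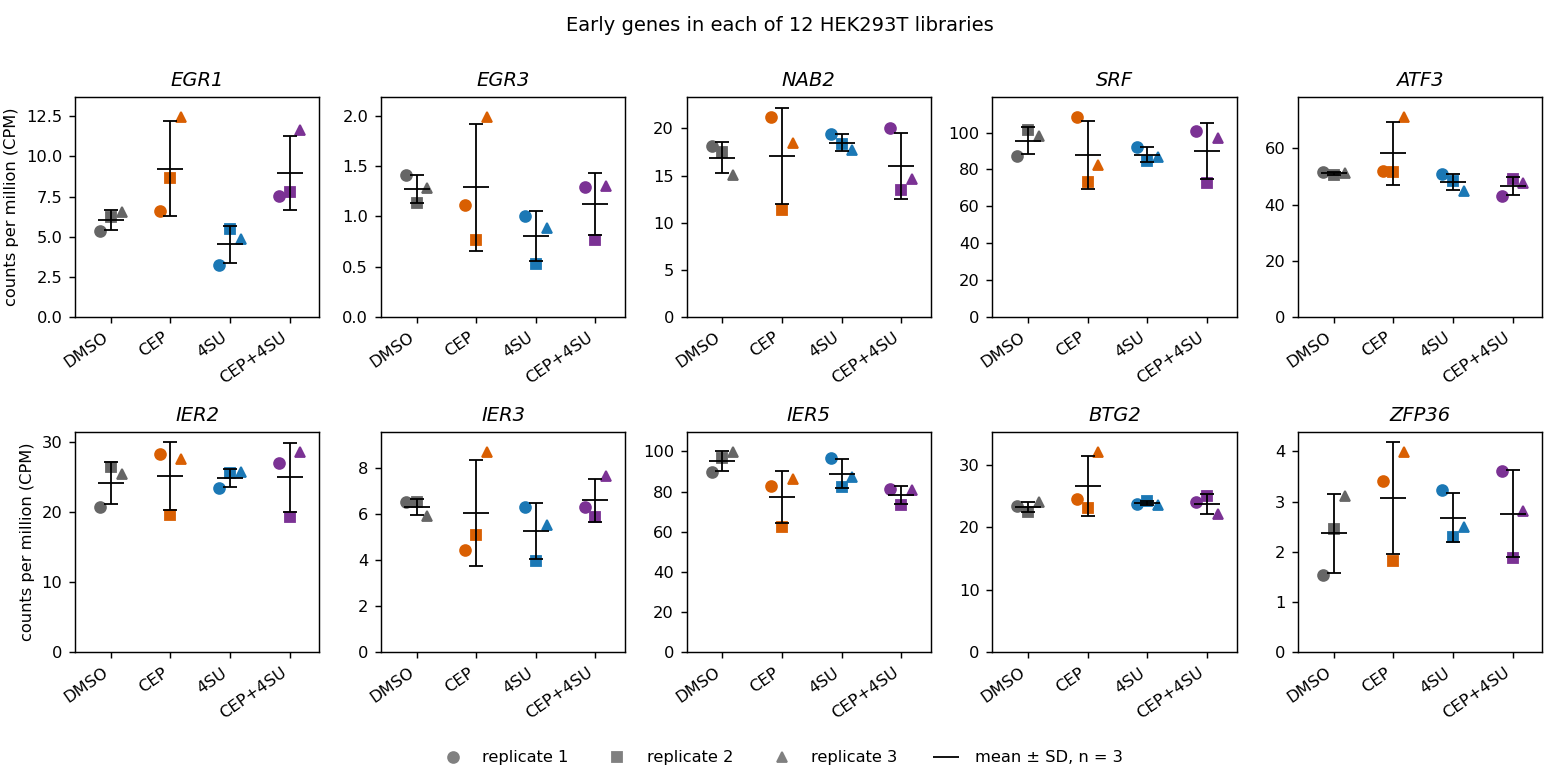
CPM (linear axis from 0) of each early gene in the 12 libraries by group. Symbols mark the replicate number and black bars the mean and SD of 3 libraries. EGR1 was higher in all 6 libraries with CEP than in the 6 without, and CEP replicate 3 held the highest value of 6 of the 10 genes.

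EGR1 was the early gene called for CEP averaged over 4SU, with an adjusted p at the edge of the threshold. This zinc finger transcription factor (ENSG00000120738, GRCh38 chromosome 5, 138465490 to 138469315, plus strand) had 5.37, 6.21 and 6.55 CPM in the DMSO libraries and 6.60, 8.66 and 12.5 CPM with CEP, replicates 1 to 3 in turn. With 4SU it had 3.23, 5.48 and 4.85 CPM, and with both compounds 7.52, 7.81 and 11.7 CPM. All 6 libraries with CEP thus lay above all 6 without, by a narrow margin between DMSO replicate 3 and CEP replicate 1, and replicate 3 was the highest in both CEP groups. The counts behind these values were 61 to 263 a library.

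The group means of EGR1 were 6.04 ± 0.609 CPM for DMSO, 9.25 ± 2.98 for CEP, 4.52 ± 1.16 for 4SU and 8.995 ± 2.31 for CEP+4SU (SD, n = 3 each). Averaged over 4SU, EGR1 was 1.75-fold higher with CEP, a log2 fold change of 0.81 (SE 0.17, 95% interval 0.45 to 1.16). The adjusted p was 0.0496 by edgeR's quasi-likelihood test. The call sits at the threshold of 0.05. EGR1 ranked 46 by p among the 49 genes called in this comparison, 0.276% of those tested (0.102% higher and 0.175% lower). Among the 10, EGR1 alone had all 6 libraries with CEP apart from the 6 without. This held for 1.73% of all genes tested, 1.21% with CEP higher and 0.513% with CEP lower. No member had its 6 libraries with 4SU apart from the 6 without, which held for 1.35% of all genes (0.491% higher and 0.863% lower).

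In the comparisons of single groups EGR1 did not pass. Against DMSO, CEP gave a log2 fold change of 0.62 (95% interval 0.13 to 1.11, adjusted p = 0.2). In 4SU-treated cells, CEP gave 1.00 (0.49 to 1.51, adjusted p = 0.481), and CEP+4SU against DMSO gave 0.57 (0.08 to 1.07, adjusted p = 0.17). The interaction, which asks whether the change with CEP differs with 4SU, was 0.38 (-0.33 to 1.09, adjusted p = 1). With 4SU alone the EGR1 difference was -0.42 (-0.94 to 0.09, adjusted p = 0.794), and the 4SU and DMSO libraries overlapped.

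The EGR1 call depends on single libraries. It held without CEP replicate 1 (adjusted p = 0.00688, 2171 of 18377 genes called), CEP+4SU replicate 1 (0.0278, 1131 of 18356) or CEP+4SU replicate 2 (0.0409, 34 of 18202). It was lost without DMSO replicate 1 (0.131), 2 (0.133) or 3 (0.111), CEP replicate 2 (0.0624) or 3 (0.104), 4SU replicate 1 (0.211), 2 (0.0608) or 3 (0.109), or CEP+4SU replicate 3 (0.106). The log2 fold change stayed between 0.66 and 0.91 throughout. Without both replicate 3 libraries of the CEP groups, it was 0.55 (adjusted p = 0.171), and without both replicate 2 libraries, which stood apart in gene detection, it was 0.88 (adjusted p = 0.0161). Against DMSO alone, CEP passed for EGR1 only when CEP replicate 1 was left out (log2 fold change 0.82, adjusted p = 0.0421). In that fit 1214 of 18377 genes were called. Without CEP replicate 3 the EGR1 change was 0.33 (adjusted p = 0.518).

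**Figure D2:**
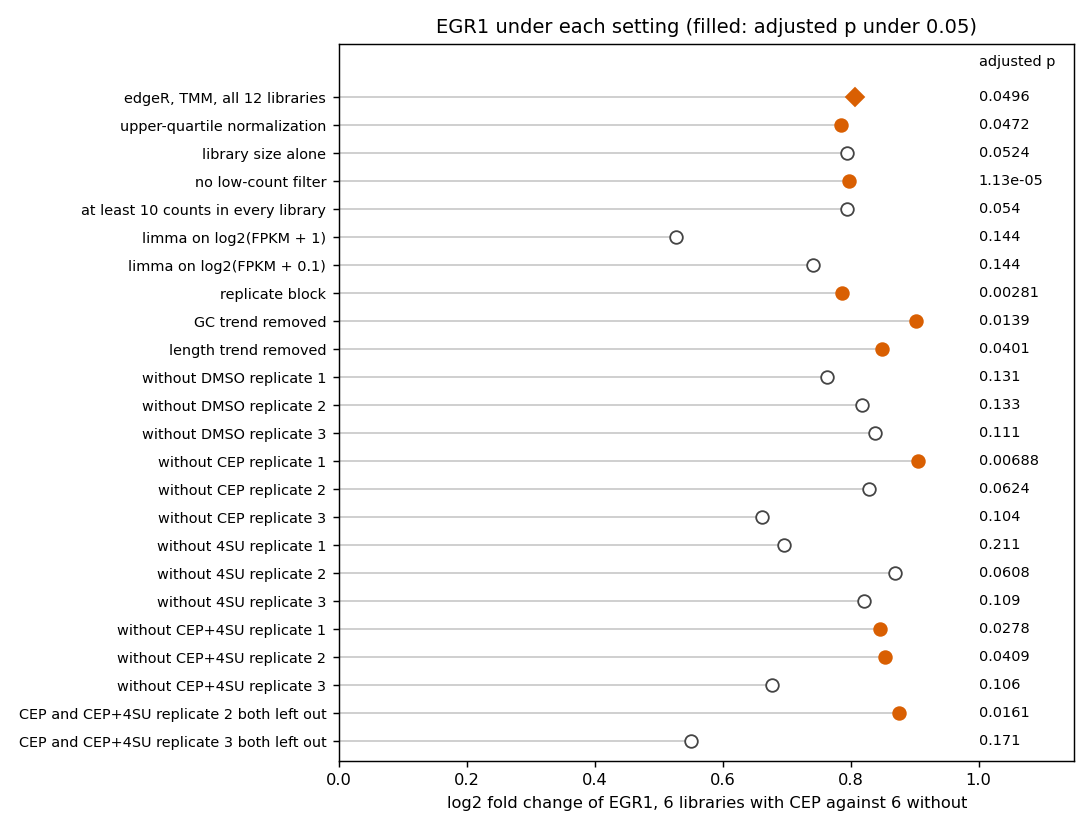
Log2 fold change of EGR1 for CEP averaged over 4SU (x axis) under each way of processing the counts, with the adjusted p at the right; the diamond is the value reported. The change was positive under every setting shown, from 0.53 to 0.91, and crossed the threshold (filled) under 9 of the 23 alternatives shown.

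EGR1 also varied more than genes at its level. Its coefficient of variation of CPM over the 12 libraries was 37.4%, against a median of 17.3% over 904 genes with a mean CPM within a set range around its own, and 99.2% of these had a lower value. The within-group SD of log2 CPM was 0.33 for EGR1 against a median of 0.22 at that level. The other early genes lay between the 34.3rd (EGR3) and the 84.9th (ATF3) percentile of genes at their level. ATF3, NAB2, SRF and IER5 were all above the 80th.

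Of the 8 early genes searched, EGR1 and SRF hold CArG boxes, the sites that SRF binds, in the 250 bases before a start. The 250 bases before the RefSeq starts (GRCh38.p14) were read for 8 of the 10 genes, in 10 windows. EGR3 and IER3 were not searched. A CArG box, CC and GG around 6 bases of A or T, was searched in each window. EGR1 holds a pair of boxes that begin 105 and 83 bases before its start, and SRF a pair that begin 30 and 10 bases before its first start. The windows of NAB2, IER2, IER5, ATF3, BTG2 and ZFP36 hold none. Of 35116 windows in all genes, 407 (1.16%) hold at least 1 box and 11 (0.0313%) hold 2 or more. Both windows are shown because the early gene that passed with CEP and the factor that binds these boxes both hold a pair. They are printed 5′ to 3′ on the plus strand, with CArG boxes and TGACG, the core of the cyclic AMP response element read on either strand, in capitals.
EGR1, chr5:138465229-138465478: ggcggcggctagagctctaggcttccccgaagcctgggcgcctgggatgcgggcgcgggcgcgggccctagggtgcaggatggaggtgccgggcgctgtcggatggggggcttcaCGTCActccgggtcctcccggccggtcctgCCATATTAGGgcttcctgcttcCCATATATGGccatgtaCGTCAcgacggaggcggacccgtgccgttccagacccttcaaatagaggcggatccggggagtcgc
SRF, chr6:43171019-43171268: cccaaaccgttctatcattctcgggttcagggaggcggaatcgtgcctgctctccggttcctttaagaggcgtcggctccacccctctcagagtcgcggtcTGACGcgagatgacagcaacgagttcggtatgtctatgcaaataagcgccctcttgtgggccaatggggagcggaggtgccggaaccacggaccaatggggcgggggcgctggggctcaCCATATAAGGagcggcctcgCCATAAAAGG

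**Figure D3:**
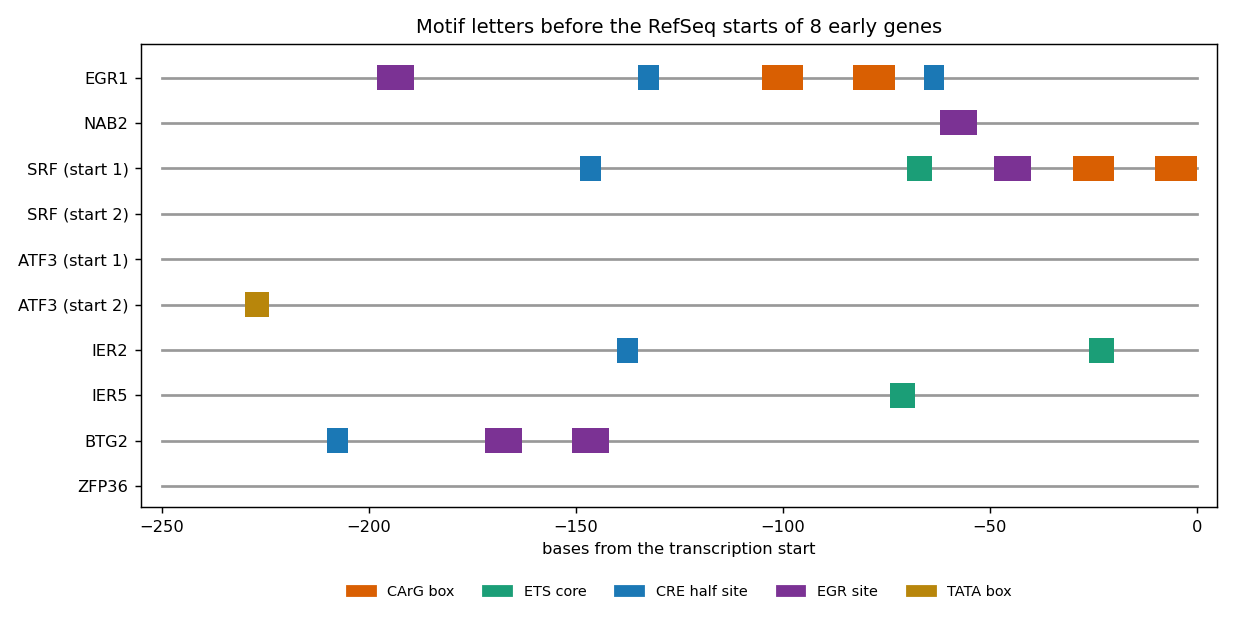
Positions of 5 motifs (colours) in the 250 bases before each RefSeq start of 8 early genes, with distance from the start in bases on the x axis; ATF3 and SRF have 2 starts. CArG boxes lie in the windows of EGR1 and of the first SRF start, and no motif searched lies in those of ZFP36, of the second SRF start or of the first ATF3 start.

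Other motif letters were scattered among the windows. TGACG on either strand lies in the windows of EGR1 (2 matches), IER2, BTG2 and SRF, against 21.2% of all windows. The ETS core CCGGAA, a site of ternary complex factors, lies in those of IER2, IER5 and SRF, against 14.5%. The EGR site GCGNGGGCG lies in those of EGR1, NAB2, SRF and BTG2 (2 matches), against 8.41%, and TATAAA in 1 ATF3 window, against 10.7%. In the windows of the early genes no match overlapped one of another motif. A match describes letters and not occupancy. Averaged over 4SU, CEP gave 0.81 on the log2 scale for EGR1 and -0.04 for SRF, and this difference between genes was not tested. Of the 6 tested genes with 2 or more boxes, EGR1 was called and AGPAT1 (-0.02), CUL4B (0.19), ING4 (-0.12), ZNF548 (0.30) and SRF were not. Over the 169 tested genes with at least 1 box, 1 (EGR1) was called higher and 1 lower, with a median log2 fold change of 0.0077. Over the 11414 with a window and no box, 9 were called higher and 19 lower, with a median of 0.0069. The median over all genes tested was -0.0065. 

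**Figure D4:**
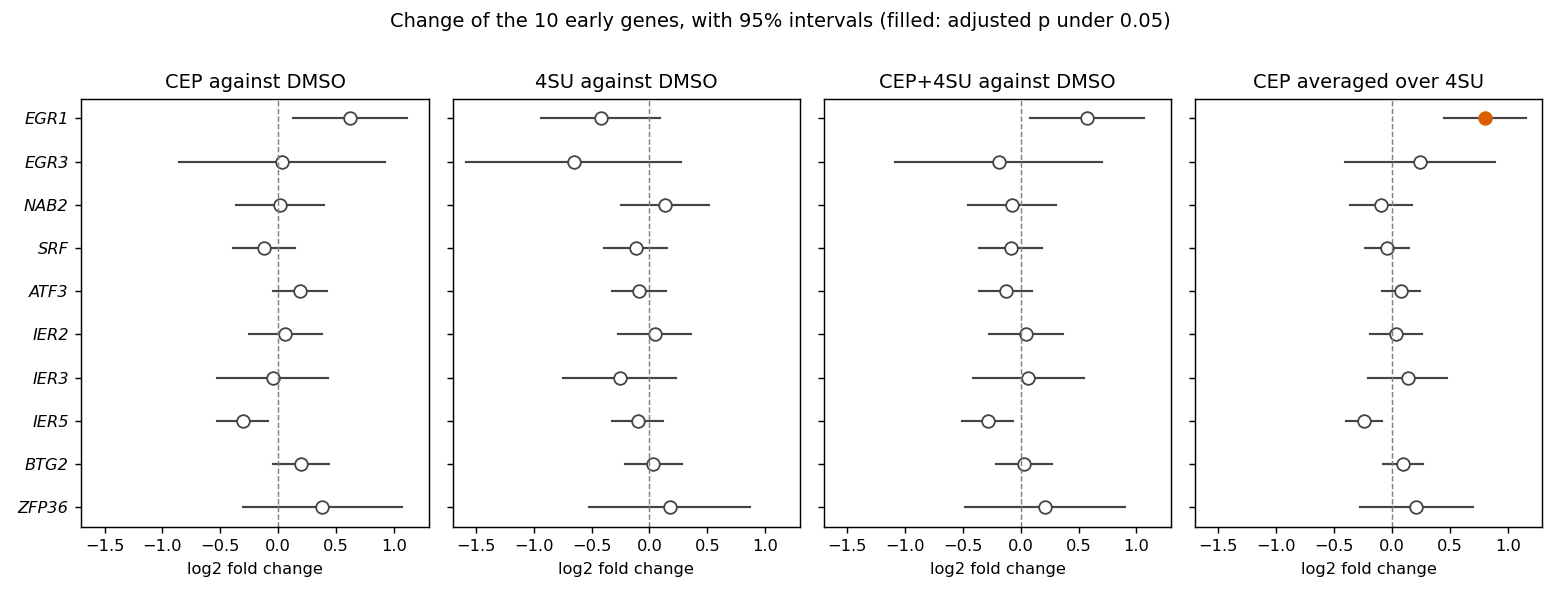
Log2 fold change (x axis) with its 95% interval for each early gene in 4 comparisons; filled points pass an adjusted p of 0.05. EGR1 passed for CEP averaged over 4SU, and no other point passed.

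SRF, the factor that binds CArG boxes, and NAB2, the co-repressor of EGR proteins, did not pass in any comparison. SRF had 87.2, 101 and 98.3 CPM in the DMSO libraries, 109, 72.9 and 82.3 with CEP, 92.4, 84.8 and 86.7 with 4SU, and 101, 72.6 and 96.9 with both. Its highest value (CEP replicate 1) and its 2 lowest (the replicate 2 libraries of both CEP groups) came from libraries with CEP. NAB2 had 18.2, 17.5 and 15.01 CPM with DMSO, 21.2, 11.4 and 18.5 with CEP, 19.4, 18.3 and 17.7 with 4SU, and 20.0, 13.4 and 14.7 with both. Here too CEP replicate 2 was the lowest and CEP replicate 1 the highest library, while the group means lay between 16.04 and 18.5 CPM. Averaged over 4SU, CEP gave -0.04 for SRF (95% interval -0.23 to 0.15, adjusted p = 0.805) and -0.10 for NAB2 (-0.37 to 0.17, adjusted p = 0.681).

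The lowest values of SRF and NAB2 fell in libraries with a negative GC trend, and the part of this trend in them was not tested. Both have GC-rich transcripts, of 60.9% and 62.6%. At a GC content of 60% the trend of log2 CPM in each library lay at 0.13 in each DMSO library, -0.18 and -0.26 in the replicate 2 libraries of CEP and CEP+4SU, and -0.13 in CEP replicate 3. In CEP replicate 3 SRF had 82.3 CPM and NAB2 18.5, against DMSO means of 95.6 and 16.9. In CEP+4SU replicate 3, with a trend of -0.01, SRF had 96.9 CPM and NAB2 14.7. With this trend removed, the CEP difference averaged over 4SU turned to 0.13 for SRF and 0.10 for NAB2, neither of which passed. Without both replicate 2 libraries the values were 0.08 and 0.07. For EGR1, with 55.4% GC, removal of the trend moved the log2 fold change from 0.81 to 0.90 (adjusted p = 0.0139).

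EGR3, a relative of EGR1 with the same type of DNA-binding zinc fingers, had the fewest counts. It had 1.41, 1.13 and 1.29 CPM with DMSO, 1.118, 0.766 and 1.99 with CEP, 1.01, 0.531 and 0.886 with 4SU, and 1.29, 0.767 and 1.31 with both. The 3 libraries with 4SU alone lay below the 3 DMSO libraries, as for 10.3% of all genes tested, while CEP replicate 3 was the highest of all. The log2 fold change for 4SU was -0.65 (95% interval -1.58 to 0.27, adjusted p = 0.814), an interval that spans both directions. For CEP averaged over 4SU it was 0.24 (-0.40 to 0.89, adjusted p = 0.661).

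ATF3, a stress-induced factor of the ATF/CREB family, showed 1 high library. It had 51.6, 50.6 and 51.2 CPM in the DMSO libraries and 52.0, 51.4 and 71.3 with CEP, so that 2 of the 3 CEP libraries lay close to DMSO. With 4SU it had 50.7, 48.5 and 44.9 CPM, and with both compounds 43.1, 49.2 and 47.8 CPM. The CEP+4SU libraries lay below the DMSO libraries without overlap, as for 14.6% of all genes tested, and the 4SU libraries overlapped the DMSO libraries. Averaged over CEP, 4SU gave a log2 fold change of -0.21 (95% interval -0.37 to -0.04, adjusted p = 0.265), and CEP+4SU against DMSO gave -0.13 (-0.36 to 0.10, adjusted p = 0.52). Without CEP replicate 3 the first of these was -0.12 (adjusted p = 0.434).

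CEP replicate 3 recurred among the early genes. It held the highest CPM of EGR1, EGR3, ATF3, BTG2, IER3 and ZFP36, 6 of the 10, and it was the highest library for 9.1% of all genes tested. At 55% and 60% GC its trend lay at -0.07 and -0.13, and 2 of the 6 genes, EGR1 and IER3, were also high in CEP+4SU replicate 3, at 11.7 and 7.63 CPM. Without both replicate 3 libraries, the CEP difference averaged over 4SU was -0.02 for ATF3 and -0.10 for IER3, against 0.07 and 0.14 with them. The library held 21367819 counts and 24954 genes at 1 count or more, within the range of the other libraries.

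IER5, the most abundant of the IER genes, had 89.8, 96.7 and 99.7 CPM with DMSO and 82.8, 62.3 and 86.3 with CEP. With 4SU it had 96.8, 82.5 and 87.4 CPM, and with both 81.1, 73.1 and 81.0. Both CEP groups lay below DMSO without overlap, and CEP+4SU lay below 4SU as well, but over all 12 libraries the groups with and without CEP overlapped. Of all genes tested, 10.1% lay lower without overlap for CEP against DMSO. The share was 14.6% for CEP+4SU against DMSO and 6.01% for CEP+4SU against 4SU. The difference averaged over 4SU was -0.24 on the log2 scale (95% interval -0.40 to -0.09, 0.845-fold), with an adjusted p of 0.0835 that missed the threshold. Against DMSO the values were -0.31 with CEP (adjusted p = 0.19) and -0.28 with both (adjusted p = 0.135), and against 4SU the value was -0.18 (adjusted p = 0.642). Without CEP replicate 1 the averaged value was -0.27 and passed (adjusted p = 0.0323), with 2171 of 18377 genes called. DESeq2, which uses other size factors and a Wald test, called IER5 (-0.25, adjusted p = 0.0235), as 1 of 1499 genes called among 9610. Removal of the GC trend left -0.24 (adjusted p = 0.165), and without both replicate 2 libraries it was -0.16 (adjusted p = 0.229).

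IER2 and IER3 did not pass in any comparison. IER2 lay between 20.8 and 26.5 CPM with DMSO, 19.7 and 28.3 with CEP, 23.5 and 25.8 with 4SU, and 19.4 and 28.6 with both. Its 2 lowest libraries were again the replicate 2 libraries of the CEP groups, and the GC content of its transcript was 61.7%. IER3 lay between 5.89 and 6.51 CPM with DMSO, 4.42 and 8.68 with CEP, 3.95 and 6.30 with 4SU, and 5.85 and 7.63 with both. For CEP averaged over 4SU, the log2 fold change was 0.03 for IER2 (95% interval -0.19 to 0.26) and 0.14 for IER3 (-0.21 to 0.48).

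The genes of mRNA decay, BTG2 and ZFP36, did not pass either. BTG2 varied least of the 10, with a coefficient of variation of 10.5% over the 12 libraries. It had 23.3, 22.5 and 24.01 CPM with DMSO and 24.6, 23.2 and 32.0 with CEP, 23.6 to 24.2 with 4SU, and 22.05 to 25.1 with both. All libraries but CEP replicate 3 thus lay between 22.05 and 25.1 CPM. ZFP36 (tristetraprolin) had 1.54 to 3.11 CPM with DMSO, 1.83 to 3.99 with CEP, 2.30 to 3.23 with 4SU and 1.87 to 3.60 with both, from 31 to 84 counts a library. CEP averaged over 4SU gave 0.09 for BTG2 (95% interval -0.08 to 0.27) and 0.21 for ZFP36 (-0.28 to 0.70), with adjusted p of 0.507 and 0.616.

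Counted over the 10 genes, few comparisons gave a call. For CEP against DMSO 0 were called, with 2 (EGR1, IER5) at an unadjusted p under 0.05, against 0.0564% called (0.0169% higher, 0.0395% lower) and 18.6% under 0.05 of all genes tested. For 4SU against DMSO it was 0 and 0, against 0.00564% and 6.50%. For CEP+4SU against DMSO it was 0 and 2 (EGR1, IER5), against 1.64% (0.643% higher, 0.993% lower) and 21.4%, and for CEP+4SU against 4SU 0 and 1 (EGR1), against 0.0451% (0.0113% higher, 0.0338% lower) and 7.89%. For CEP averaged over 4SU 1 was called and 2 (EGR1, IER5) were under 0.05, against 0.276% and 24.3%. For 4SU averaged over CEP it was 0 and 1 (ATF3), against 0.558% (0.175% higher, 0.384% lower) and 12.6%, and for the interaction 0 and 0, against 0% and 2.63%. The shares of members under 0.05 lay near those of all genes. DESeq2 gave an adjusted p to 2 to 10 of the members, depending on the comparison. Of the members it called only IER5, for CEP averaged over 4SU, where it called 1499 of 9610 genes. Limma on log2 FPKM called no member in any comparison, and 19 of 17729 genes for CEP averaged over 4SU.

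The direction of the 10 was mixed as well. For CEP averaged over 4SU, 7 were positive and 3 negative with a median log2 fold change of 0.08, against -0.01 over all genes tested. For 4SU averaged over CEP 3 were positive and 7 negative with a median of -0.06, against -0.0019. The median absolute change of the members was 0.12 for CEP averaged over 4SU, against 0.15 over all genes. Groups without overlap were 1 higher and 1 lower for CEP against DMSO (13.5% and 10.1% of all genes, 23.7% in either direction). For 4SU against DMSO they were 0 and 1 (7.58% and 10.3%, 17.9%), and for CEP+4SU against DMSO 1 and 2 (14.1% and 14.6%, 28.7%). CEP+4SU against 4SU had 1 and 1 (7.58% and 6.01%, 13.6%).

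The genes whose pattern was most like that of EGR1 were not early genes of the list. Likeness was measured as the root mean square difference of log2 CPM, each gene centred on its DMSO mean, over the 12 libraries and 14893 candidates with at least 1 CPM. The 5 closest were COL19A1 (0.28), TDRD12 (0.30), MIR22HG (0.33), C3orf58 (0.33) and ADM (0.33), against a median of 0.57. COL19A1 and TDRD12, at means of 1.83 and 1.74 CPM, lay near the floor of 1 CPM. COL19A1 encodes a collagen, MIR22HG is the host transcript of a microRNA, and ADM encodes the vasodilator peptide adrenomedullin. Their mean log2 differences from DMSO were 0.39 to 0.55 with CEP, -0.30 to -0.06 with 4SU and 0.19 to 0.46 with both. On this scale the single libraries of EGR1, replicates 1 to 3, had 0.13, 0.52 and 1.04 with CEP. They had -0.88, -0.13 and -0.31 with 4SU, and 0.32, 0.37 and 0.94 with both. Of the members, BTG2 (0.48) and ATF3 (0.50) were the nearest and IER5 (0.70) the farthest.

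Genes around the early genes were read from 6 lists, chosen by function. Of the family relatives (EGR2, NAB1, ZFP36L1, BTG1 and others), 0 of 9 tested were called in any comparison. The 2 with the smallest p for CEP averaged over 4SU were ZFP36L1, an mRNA-decay factor related to ZFP36 (0.35, adjusted p = 0.0507), and BTG3, a relative of BTG2 (0.30, adjusted p = 0.0589). ZFP36L1 lay at 22.7 to 26.5 CPM with DMSO and 28.9 to 36.3 with CEP, at 23.7 to 26.5 with 4SU and 28.6 to 32.1 with both, so that its libraries with CEP lay above those without. BTG3 lay at 47.8 to 51.3 and 56.2 to 70.4 CPM, and at 45.1 to 50.8 and 53.5 to 63.9, again without overlap. Such a separation with CEP higher held for 1.21% of all genes tested, and both genes were picked by their p. In this list 8 of 9 changes were positive and the median log2 fold change for the CEP average was 0.10. Over all genes tested 48.9% were positive in that comparison. With upper-quartile or library-size scaling 6 of 9 were positive, and with the GC trend removed or without both replicate 3 libraries 5 of 9, with medians of 0.058 to 0.089. With the GC trend removed ZFP36L1 (0.36, adjusted p = 0.0181) and TOB2 (0.23, adjusted p = 0.024) passed, and with a length trend removed BTG3 did (0.37, adjusted p = 0.0339).

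Of 29 other early genes tested, 0 were called higher and 1 lower. For CEP+4SU against DMSO, 0.643% of all genes were called higher and 0.993% lower. The gene called was RHOB, a small GTPase of endosomes and the actin cytoskeleton that is itself an early response gene. It lay at 230 to 237 CPM with DMSO, 176 to 194 with CEP, 191 to 239 with 4SU and 151 to 178 with both. RHOB fell by 0.52 on the log2 scale with CEP+4SU (adjusted p = 0.00852) and by 0.36 with CEP averaged over 4SU (adjusted p = 0.011), a direction opposite to that of EGR1. The averaged call was lost without both replicate 3 libraries (adjusted p = 0.0937) and with limma on FPKM (0.0536 and 0.0568), and it held under removal of the GC trend, at -0.23 (adjusted p = 0.0139). The call against DMSO was lost without DMSO replicate 2 (adjusted p = 0.0521), DMSO replicate 3 (0.0675), CEP+4SU replicate 3 (0.0606) or both replicate 3 libraries (0.0523). The list, with NR4A, KLF and GADD45 genes in it, had 10 of 29 positive for CEP averaged over 4SU and a median of -0.04, and with the GC trend removed 17 of 29 and 0.02. With that trend removed PPP1R15A, a phosphatase subunit of the stress response, passed for CEP+4SU (0.49, adjusted p = 0.0364).

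Of 15 genes of the ERK and p38 cascade 0 were called in any comparison, with the kinase gene BRAF (0.26, adjusted p = 0.0872) at the smallest p for CEP averaged over 4SU. BRAF passed for CEP+4SU with library size alone as the scaling (0.46, adjusted p = 0.0462). Of 12 CCR4-NOT genes 0 were called, with the scaffold CNOT1 (0.19, adjusted p = 0.0862) and the nuclease CNOT7 (0.17, adjusted p = 0.117) first. Of 9 SRF partners 1 was called, CREB1, a factor that binds the cyclic AMP response element. The share of all genes called higher with CEP+4SU against DMSO was 0.643%. CREB1 lay at 43.1 to 46.0 CPM with DMSO, 56.2 to 58.2 with CEP, 49.6 to 53.4 with 4SU and 53.8 to 58.7 with both. It rose by 0.34 on the log2 scale with CEP+4SU (adjusted p = 0.0428), and with the GC trend removed the value was 0.14 (adjusted p = 0.411). Of the 12 libraries left out in turn, the call held without CEP replicate 1 (0.0316) or 2 (0.0273) and was lost without any other. Without DMSO replicates 1 to 3 the adjusted p was 0.163, 0.15 and 0.134, without CEP replicate 3 0.05, without 4SU replicates 1 to 3 0.0515, 0.0651 and 0.075, and without CEP+4SU replicates 1 to 3 0.0559, 0.165 and 0.0812. It was also lost with limma on FPKM (0.101 and 0.1), with the length trend removed (0.0585), and without both replicate 2 (0.0652) or both replicate 3 libraries (0.0786). The CREB1 call held with DESeq2 (0.00453), a replicate block (0.0128), no low-count filter (0.0393) and library size alone (0.0294). For CEP averaged over 4SU, CREB1 missed the threshold (0.26, adjusted p = 0.056). There it passed with DESeq2 (0.0042), the block (0.00994) and no low-count filter (0.0249), and without CEP replicate 1 (0.0157).

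Of the 15 tested cytoskeletal targets of SRF and its partner MRTF, 0 were called higher and 2 lower with CEP+4SU. Of all genes, 0.643% were called higher and 0.993% lower. ACTG1, cytoplasmic gamma actin, lay at 3637 to 4101 CPM with DMSO, 3377 to 4060 with CEP, 2784 to 3152 with 4SU and 2547 to 3282 with both. It fell by 0.37 on the log2 scale with CEP+4SU (adjusted p = 0.0449) and by 0.36 with 4SU averaged over CEP (adjusted p = 0.0151). FLNA, the actin crosslinker filamin A, fell by 0.42 with CEP+4SU (adjusted p = 0.0495), from 873 to 917 CPM with DMSO to 553 to 747. In this comparison 14 of the 15 were negative with a median of -0.25, against 0.00 over all genes tested, of which 50% were positive. With the GC trend removed in this comparison, 12 of 15 were negative with a median of -0.10. Neither gene was called there (ACTG1 -0.21, adjusted p = 0.146, and FLNA -0.17, adjusted p = 0.192). With library size alone as the scaling, the adjusted p of FLNA was 0.0543. Both calls were lost without DMSO replicate 1 (ACTG1 0.205, FLNA 0.189), 2 (0.124, 0.146) or 3 (0.13, 0.134), without 4SU replicate 2 (0.0623, 0.068) or 3 (0.0726, 0.0802), and without CEP+4SU replicate 2 (0.209, 0.218) or 3 (0.063, 0.079). That of FLNA was also lost without 4SU replicate 1 (0.052). For 4SU averaged over CEP, 1 of the 15 was positive and the median was -0.155, against -0.0019 over all genes tested. With the GC trend removed, 2 of the 15 were positive for 4SU averaged over CEP and 3 were called lower. These were ACTG1 (-0.33, adjusted p = 0.000641), FLNA (-0.24, adjusted p = 0.00399) and FHL2 (-0.31, adjusted p = 0.0125). In that fit 403 of 17729 genes were called lower. The ACTG1 call for 4SU averaged over CEP was lost without DMSO replicate 1 (0.0708), 4SU replicate 2 (0.0718) or 4SU replicate 3 (0.07), and with limma on FPKM (0.15 and 0.147). With limma the CEP+4SU calls were lost as well (ACTG1 0.176 and 0.17, FLNA 0.131 under both pseudocounts), as they were without both replicate 2 libraries (0.0639, 0.0954). With the length trend removed the adjusted p of ACTG1 was 0.0585, and without both replicate 3 libraries that of FLNA was 0.0539. With at least 10 counts in every library that of FLNA was 0.05. For CEP averaged over 4SU 0 of the 15 were called, 10 were negative, and with the GC trend removed 3 were.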

How the data were processed

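The 10 early genes and the 6 gene lists around them were chosen with earlier results of these data known. RNA-Seq counts, as deposited by the authors, are whole fragments per gene, made per the methods and the submitters' processing notes with HISAT2 2.0.5 on GRCh38 and featureCounts 1.5.0-p3, without normalization. The strand setting is not given in the sources used here. The FPKM values were deposited by the authors on a linear scale, per gene length and an adjusted library size; a column set of FPKM means per group was not used.

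Counts were filtered with filterByExpr (minimum count 10, minimum total 15), leaving 17729 genes, normalized with TMM and fitted in edgeR 4.0.16 (R 4.3.3) with 4 group means over all 12 libraries. The quasi-likelihood test was adjusted by Benjamini-Hochberg over all genes tested, at a threshold of 0.05. CPM uses TMM library sizes. Fold changes use a prior count of 0.125, genes at the level of a member have 0.8 times its mean CPM or up to the inverse of that, and 95% intervals come from the quasi-likelihood standard error. The comparison of CEP+4SU with 4SU was added after the data were seen. Named genes were all members, list genes that passed in a comparison, otherwise the 2 of smallest p for CEP averaged over 4SU per list, and the 5 genes most like EGR1. AGPAT1, CUL4B, ING4 and ZNF548 were named by their promoter letters, and TOB2, PPP1R15A and FHL2 after their values were seen. Alternatives were DESeq2 1.42.0, limma 3.58.1 on log2(FPKM + 1) or log2(FPKM + 0.1), other scalings and filters, removal of GC or length trends (lowess span 0.3), a replicate block, and libraries left out. GC content is that of the longest GENCODE 29 transcript, known for 17718 of the genes tested. Reads, isoforms and intronic signal were not analysed here, and 1 marker and 1 list gene are not reported here.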

Additional observations from a re-analysis of the deposited data

How the results depend on the processing

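Numbers of early genes called moved with the processing mainly for CEP averaged over 4SU. There 1 (EGR1) became 0 with library size alone, with at least 10 counts in every library, with limma on log2(FPKM + 1) or log2(FPKM + 0.1), and without both replicate 3 libraries of CEP and CEP+4SU. It became 2 (EGR1, IER5) with no low-count filter (1448 of 35634 genes called) and with the replicate block. Leaving out 1 library gave 0 to 2, the 2 without CEP replicate 1, where 2171 of 18377 genes were called. DESeq2 also called 1, but IER5, with 1499 of 9610 genes called, and gave EGR1 no adjusted p after independent filtering. For CEP against DMSO, 0 became 1 (IER5) with the replicate block. There, leaving out 1 library gave 0 to 1, the 1 (EGR1) without CEP replicate 1, where 1214 of 18377 genes were called. For CEP+4SU against DMSO, 0 became 1 (IER5) with the block, and for CEP+4SU against 4SU, 0 became 1 (EGR1) with no filter or the block. With the block the EGR1 value for CEP averaged over 4SU was 0.79 (adjusted p = 0.00281), and that of IER5 -0.25 (adjusted p = 0.0171). The block moved the genes called for CEP against DMSO from 10 to 780 and for CEP averaged over 4SU from 49 to 2269. Of 18 pairs of same-numbered libraries (r from -0.0469 to 0.1415), 1 was over 0.1, so the numbers were not taken to pair the samples. As a hint from the data, the pairs of replicates 1 and 2 among CEP, 4SU and CEP+4SU had r from 0.0437 to 0.1415, against at most 0.0555 over 36 pairs of different number, while those with DMSO or of replicate 3 lay between -0.0469 and 0.0165.

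For CEP averaged over 4SU, the comparison in which all 10 genes were followed through the alternatives, signs turned for 6 of them, none of which had passed. With the GC trend removed, NAB2 gave 0.10 and SRF 0.13. Without both replicate 2 libraries they gave 0.065 and 0.078. Without both replicate 3 libraries EGR3 gave -0.051, IER2 -0.060, IER3 -0.10 and ATF3 -0.021. Leaving out 1 library, NAB2 ran from -0.21 to 0.0089, SRF from -0.13 to 0.022, IER2 from -0.037 to 0.11, IER3 from -0.048 to 0.23 and ATF3 from -0.0145 to 0.11. The cause was not tested. EGR1 in all 7 comparisons, and IER5 in the 4 that involve CEP other than the interaction, kept their direction under every alternative that gave an adjusted p. Leaving out both replicate 3 libraries was added with the data in view. EGR3 and ZFP36, with 9 to 84 counts a library, are limited by depth.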
